A study of Mus musculus with 8 samples.

Results

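The genes for the cytokines LIF and oncostatin M and for their relatives in the gp130 family were examined in the left ventricle of mice with angiotensin II (ANG II)-induced hypertension. The members were the rows of the deposited expression table named Lif, Osm, Clcf1 and Ctf1, which encode ligands, and Osmr, Lifr and Cntfr, which encode receptors. All 7 were found among 55679 genes. RNA-seq libraries came from the left ventricles of 8 male wild-type C57BL/6J mice. The control group held 4 mice infused with saline for 7 days, and the ANG II group held 4 mice infused for 7 days with ANG II, a vasoconstrictor peptide, at 1500 ng/kg/min from a subcutaneous osmotic pump. The ages of the mice were not given in the sources used here. Every library is a whole-tissue sample of 1 ventricle, so fewer cells of a type and less RNA per cell cannot be told apart. The labels do not state separate cages or litters, and p-values measure the spread between these animals.

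Cytokines of this family signal through gp130, a receptor chain that is encoded by Il6st and made by most cells. Most ligands recruit gp130 together with a further signalling chain, which several of them share. In the mouse, oncostatin M pairs gp130 chiefly with the oncostatin M receptor, whereas LIF and cardiotrophin 1 pair it with the LIF receptor. Ciliary neurotrophic factor and cardiotrophin-like cytokine first bind the non-signalling chain CNTFR and then gp130 with the LIF receptor. The assembled receptors activate JAK kinases and the transcription factor STAT3, and SOCS3 is the best-known brake on them. In the heart the family is known for promoting cardiomyocyte hypertrophy and survival, and oncostatin M for cardiomyocyte dedifferentiation.

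Of these genes, 4 lie in 2 neighbouring pairs in GENCODE M21 (GRCm38). Osm (ENSMUSG00000058755, chromosome 11, 4236420 to 4241026) and Lif (ENSMUSG00000034394, chromosome 11, 4257557 to 4272514) are 16.5 kb apart on the plus strand. Osmr (ENSMUSG00000022146, chromosome 15, 6813577 to 6874969, minus strand) and Lifr (ENSMUSG00000054263, chromosome 15, 7090614 to 7197489, plus strand) are 216 kb apart. Ctf1 (ENSMUSG00000042340) lies on chromosome 7 from 127712736 to 127718192, Cntfr (ENSMUSG00000028444) on chromosome 4 from 41657498 to 41697089, and Clcf1 (ENSMUSG00000040663) on chromosome 19 from 4214238 to 4223490. Shared sequence was low for the 6 members that were detected, at most 0.213% of 50-base words (Lifr).

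RefSeq promoter windows (GRCm38.p6) were matched for 5 of the 7 members, all but Osm and Clcf1. The 250 bases before the start are shown for Osmr and Lif, which lay higher in every ANG II library than in any control library, for Lifr (1 of its 2 windows), the neighbour of Osmr that did not pass the test, and for Socs3, the gene of the pathway's brake. Capitals mark matches to the STAT element TTCNNNGAA or the AP-1 element TGANTCA, which read the same on both strands.
Osmr, chr15:6874314-6874563, minus strand: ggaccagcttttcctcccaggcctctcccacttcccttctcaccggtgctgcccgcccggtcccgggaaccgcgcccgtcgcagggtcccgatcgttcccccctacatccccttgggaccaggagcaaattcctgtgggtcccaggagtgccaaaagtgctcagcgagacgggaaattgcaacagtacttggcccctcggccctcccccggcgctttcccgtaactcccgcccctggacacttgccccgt
Lif, chr11:4257318-4257567, plus strand: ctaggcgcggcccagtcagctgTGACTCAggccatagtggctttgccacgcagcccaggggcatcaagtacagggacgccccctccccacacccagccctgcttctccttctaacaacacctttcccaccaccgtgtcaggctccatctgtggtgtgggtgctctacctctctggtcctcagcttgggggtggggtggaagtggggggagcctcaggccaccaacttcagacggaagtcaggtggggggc
Lifr, chr15:7129322-7129571, plus strand: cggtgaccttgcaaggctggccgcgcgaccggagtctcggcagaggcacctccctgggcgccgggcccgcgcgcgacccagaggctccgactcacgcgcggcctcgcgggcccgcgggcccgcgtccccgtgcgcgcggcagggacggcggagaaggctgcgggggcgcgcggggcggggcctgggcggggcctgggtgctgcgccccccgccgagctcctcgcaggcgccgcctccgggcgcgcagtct
Socs3, chr11:117969367-117969616, minus strand: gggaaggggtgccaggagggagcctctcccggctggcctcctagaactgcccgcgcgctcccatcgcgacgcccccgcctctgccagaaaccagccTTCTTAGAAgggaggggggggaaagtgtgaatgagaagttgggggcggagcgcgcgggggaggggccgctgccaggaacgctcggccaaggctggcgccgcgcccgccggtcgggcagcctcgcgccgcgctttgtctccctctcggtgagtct
Neither element occurred in the Osmr window or in either Lifr window. The Lif window held 1 AP-1 element, at position -228 counted from the start, and the Socs3 window held 1 STAT element, at position -154. The windows of Ctf1, Cntfr, Il6st and Timp1, a target gene of STAT3, held neither. Of 32851 mouse promoter windows of this length, 7.02% held the STAT element and 6.75% the AP-1 element. A match is a description of the letters only.

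The libraries held 14455690 to 16564853 fragments in the control group and 15118859 to 15975921 in the ANG II group, read from the steps of the FPKM values, which are fragments scaled by transcript length and library total. Cardiomyocyte markers marked the tissue, with the 8 genes of that list summing to 47364 to 48303 FPKM in control and 35506 to 38203 FPKM in ANG II. Fold changes are differences of log2(FPKM + 1) by limma, and calls needed a Benjamini-Hochberg adjusted p-value (over 19364 genes) under 0.05 together with a fold change beyond 0.5 on the log2 scale in either direction. By these rules 14% of all tested genes were called higher in ANG II and 1.41% lower. All tested genes had a median log2 fold change of 0.15, and values relative to that shift are given for Osmr and Il6st. Mitochondrially encoded genes took 28.9 to 30.2% of the summed FPKM in control and 22.1 to 24.6% in ANG II, and genes of at least 1 FPKM numbered 12397 to 12719 and 13123 to 13298. Results under a common total that leaves out the mitochondrial genes and the 10 highest are given where they change a call or a direction.

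Among the receptors, Osmr rose in the ANG II group while Lifr and Cntfr did not pass the test. Osmr, the signalling chain that binds oncostatin M and also serves the IL-31 receptor, was at 11.002, 10.5, 10.1 and 13.1 FPKM in control 1 to 4 and at 23.0, 18.4, 17.4 and 20.1 FPKM in ANG II 1 to 4. Every ANG II library lay above every control library. The mean went from 11.2 ± 1.32 to 19.7 ± 2.45 FPKM (SD, n = 4 each), or 1.77-fold. On the log2 scale Osmr rose by 0.77 (SE 0.102, limma adjusted p = 3.97e-04), and by 0.62 relative to all genes. In each library 484 to 1106 fragments stood behind these values.

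Lifr, the chain used by LIF and cardiotrophin 1, was at 15.4, 19.4, 17.9 and 19.1 FPKM in control and at 17.3, 16.2, 17.0 and 17.7 FPKM in ANG II. The groups overlapped. Its log2 fold change was -0.07 (95% interval -0.24 to 0.11, limma adjusted p = 0.547), and the interval leaves out a change of the size seen for Osmr. Under median-of-ratios scaling of the libraries the value was -0.28 (limma adjusted p = 0.0278), and under quantile normalization -0.30 (0.0192), both within the fold change threshold.

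Cntfr, which tethers ciliary neurotrophic factor to the signalling chains, was at 2.31, 1.83, 2.53 and 2.80 FPKM in control and at 1.38, 1.49, 2.58 and 2.27 FPKM in ANG II. ANG II 1 and 2 were the lowest of the 8 libraries, whereas ANG II 3 and 4 lay inside the control range. The log2 fold change was -0.21 (95% interval -0.57 to 0.14, limma adjusted p = 0.344). Quantile normalization gave -0.50 with a limma adjusted p of 0.0453, which passed both thresholds.

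Il6st, the gene of gp130 itself, was the most abundant of these receptor genes. It was at 81.1, 79.8, 80.4 and 89.9 FPKM in control and at 93.2, 98.8, 90.3 and 106.9 FPKM in ANG II. The groups did not overlap, but the nearest libraries, control 4 and ANG II 3, were close. Its difference of 0.23 in log2 units (SE 0.064, limma adjusted p = 0.0204) stayed under the fold change threshold, and it was 0.08 relative to all genes and 0.0024 under median-of-ratios scaling.

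**Figure D1:**
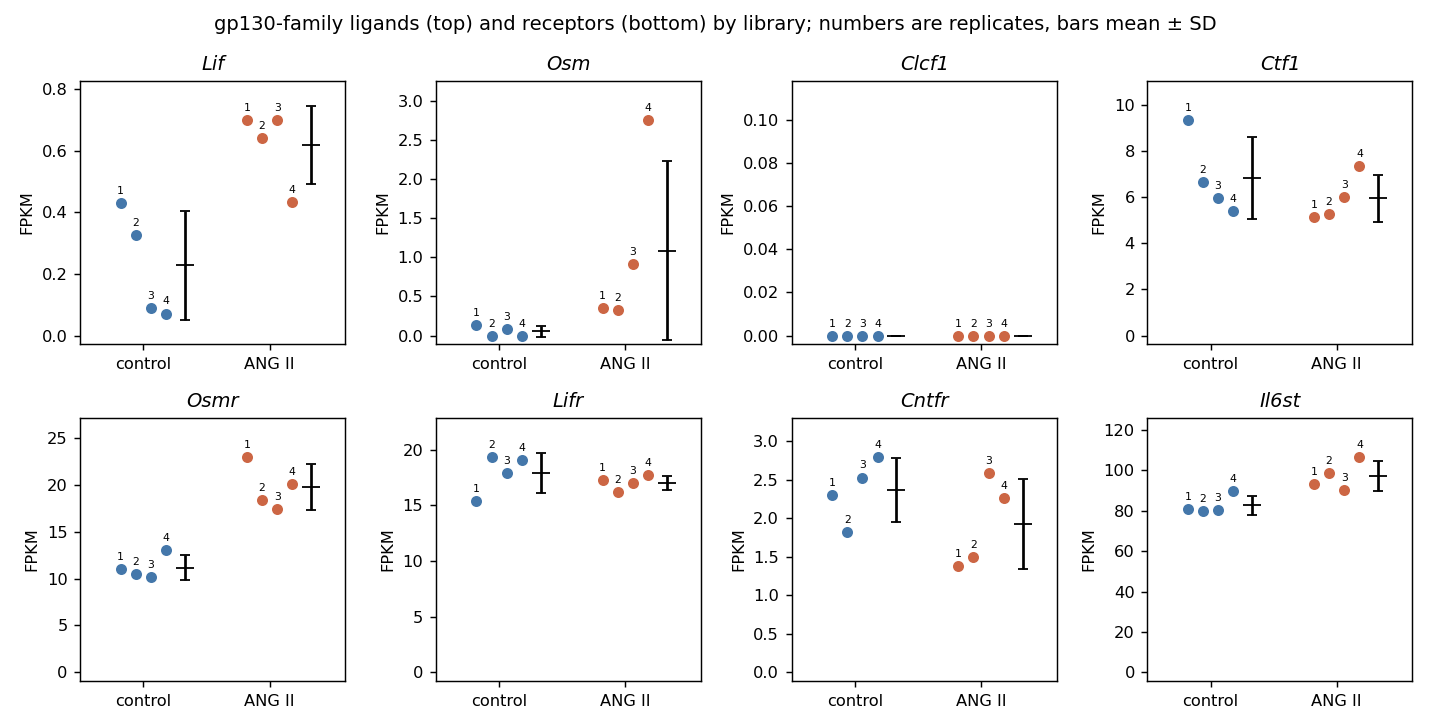
FPKM of each gene (y axis, linear, from 0) in the 4 control (blue) and 4 ANG II (orange) libraries; numbers are replicate numbers and bars give mean ± SD. Osmr separates the groups, at 10.1 to 13.1 FPKM in control and 17.4 to 23.0 FPKM in ANG II, whereas Lifr, Cntfr and Ctf1 overlap and Clcf1 is listed at 0 throughout.

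A ratio within each library compares the receptor chains without regard to how libraries are scaled. The ratio of Osmr to Lifr, both per length, was 0.713, 0.539, 0.566 and 0.686 in control and 1.33, 1.14, 1.02 and 1.14 in ANG II. In FPKM, Lifr exceeded Osmr in every control library, and Osmr exceeded Lifr in every ANG II library. Whether the ratio passes 1 depends on the transcript lengths used, whereas its shift between the groups does not. In fragments, ANG II 3 held 835 for Osmr and 877 for Lifr, while Osmr held more than Lifr in ANG II 1, 2 and 4. The mean ratio went from 0.626 ± 0.0861 to 1.16 ± 0.127 (SD, n = 4 each), a difference of 0.89 on the log2 scale against a pooled SD of 0.179.

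Relative to Il6st, Osmr went from 0.135 ± 0.0083 to 0.204 ± 0.029 and Lifr from 0.217 ± 0.0219 to 0.176 ± 0.0129 (SD, n = 4 each). Neither ratio overlapped between the groups. For Lifr to Il6st the nearest libraries were control 1 at 0.190 and ANG II 3 at 0.188. No test was run on the ratios.

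**Figure D2:**
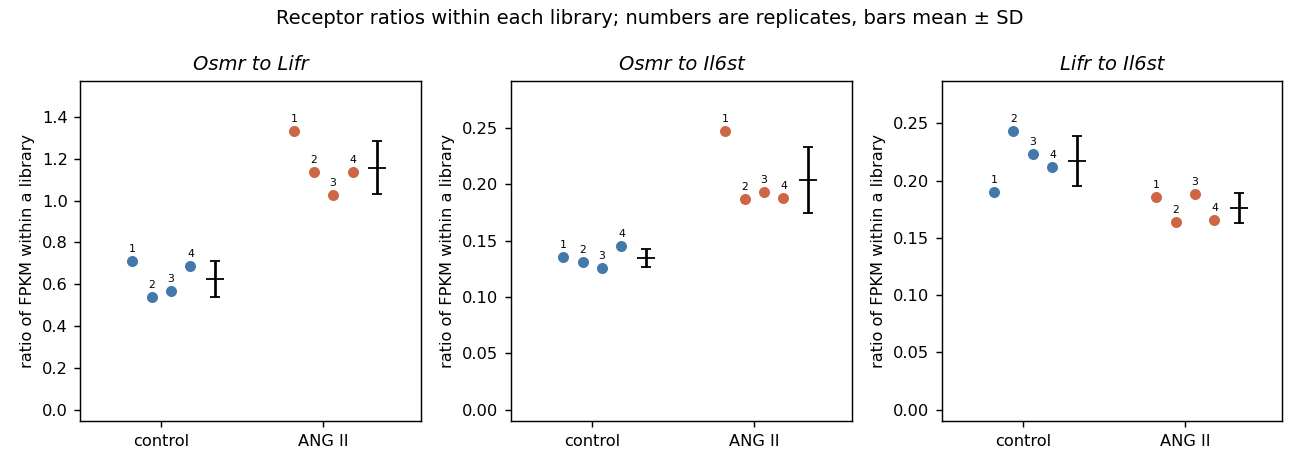
Ratios of FPKM within a library (y axis, linear, from 0) for Osmr to Lifr, Osmr to Il6st and Lifr to Il6st, with the replicate number at each point and mean ± SD beside each group. The Osmr to Lifr ratio lies between 0.539 and 0.713 in control and between 1.02 and 1.33 in ANG II.

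Among the ligands, Osm was scarce and called higher in ANG II, Lif was scarce and not called, Ctf1 did not pass the test, and Clcf1 was listed at 0. Osm, an inflammatory cytokine made mainly by myeloid and T cells, was at 0.136, 0, 0.0793 and 0 FPKM in control and at 0.346, 0.329, 0.912 and 2.75 FPKM in ANG II. The ANG II group held all 4 of the highest values, but ANG II 4 alone held 67 of the group's 104 fragments. Control libraries held 3, 0, 2 and 0 fragments, which is at or under the floor of 3 fragments that a value of 0 allows. The summed fragments gave a 20.4-fold ratio (95% interval 8.46 to 64.1, counting error only), and 9.75-fold (3.82 to 31.8) without ANG II 4.

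Osm was called at 0.85 on the log2(FPKM + 1) scale (SE 0.289, limma adjusted p = 0.0470). It passed the filter on low values through its ANG II libraries, and with no filter the call was lost (limma adjusted p = 0.0900). The call was lost in 12 of 18 alternatives, with limma adjusted p-values from 0.0092 to 0.107 over all of them. Without ANG II 4 the log2 fold change was 0.52 and the gene was still called (limma adjusted p = 0.0268), while leaving out any control library or ANG II 3 ended the call (limma adjusted p = 0.0814 to 0.107).

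Lif, the ligand of the LIF receptor, was at 0.430, 0.325, 0.0882 and 0.0716 FPKM in control and at 0.699, 0.641, 0.701 and 0.434 FPKM in ANG II. These values stood on 17, 13, 4 and 3 fragments in control and on 29, 28, 29 and 19 in ANG II. The groups did not overlap, though control 1 and ANG II 4 were alike. The difference of 0.41 in log2 units (SE 0.122, limma adjusted p = 0.0282) fell short of the fold change threshold, and the limma adjusted p ranged from 0.0159 to 0.0788 with a library left out. It was 0.0634 under median-of-ratios scaling, 0.101 under quantile normalization and 0.0526 with a common total. With a pseudocount of 0.1 FPKM it was 1.28 (limma adjusted p = 0.0388) and Lif was called. The summed fragments, 37 in control and 105 in ANG II, gave a 2.78-fold ratio (95% interval 1.89 to 4.16, counting error only).

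Ctf1, which encodes cardiotrophin 1, was the most abundant ligand gene of the family members and was at 9.36, 6.65, 5.95 and 5.38 FPKM in control and at 5.14, 5.26, 6.03 and 7.36 FPKM in ANG II. Control 1 was the highest of the 8 libraries and the groups otherwise overlapped. The log2 fold change was -0.16 (95% interval -0.52 to 0.20, limma adjusted p = 0.480), and it was -0.017 without control 1. It was -0.36 under median-of-ratios scaling (limma adjusted p = 0.108) and -0.46 under quantile normalization (0.0414), within the fold change threshold. The exons of Ctf1 lie under Ctf2 of the opposite strand over 4.77% of their length.

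Clcf1, which encodes cardiotrophin-like cytokine factor 1, was listed at 0 FPKM in all 8 libraries and was not tested. So was Mt2, a metallothionein gene, in all 8 libraries in which its neighbour Mt1 was at 59.4 to 171 FPKM, so a listed 0 cannot be read as absence. The annotation places a second gene on the same strand over 8.17% of the exon length of Clcf1 and an antisense gene over 73.5% of that of Mt2.

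Of the 7 members, then, 2 were called higher and 0 lower (14% and 1.41% of all tested genes), 4 were tested without a call and 1 was not tested. The 2 called members were Osmr and Osm, and with no filter on low values Osmr alone was called, so nothing is read from the count. At an adjusted p-value under 0.05 alone, Lif was added, where 28.4% of all tested genes were past that threshold and higher and 4.91% lower. Groups did not overlap at 3 members, all higher in ANG II, against 28.7% of all tested genes in that direction and 5.06% in the other. The median log2 fold change of the 6 tested members was 0.17, beside 0.15 over all tested genes.

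Genes with a profile most like that of a member were sought by the root mean square difference of log2(FPKM + 1), centred on the control mean, over the 8 libraries. Among 11973 candidate genes the nearest to Osmr were Gab2, an adaptor of growth factor and cytokine receptors, Elf4, an ETS transcription factor, and Cmklr1, the chemerin receptor, with differences of 0.0663, 0.0664 and 0.068 on the log2 scale. The nearest to Lifr were Pyurf, Ssh2 and Spice1 (0.0294 to 0.0548). For Ctf1 they were Prlr, Coro6 and Fgf9 (0.0846 to 0.127), and for Cntfr Mettl23, Cutc and Hspe1 (0.0962 to 0.131).

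The other cytokines and receptors of the IL-6 family, nearly all of which use gp130, were described from a list of 11 genes, of which 9 were tested, 3 were called higher and 0 lower, against 14% and 1.41% of all tested genes. Their median log2 fold change was 0.31, beside 0.15 over all tested genes. The called genes were Il6, Il6ra and Il27ra. Il6ra and Il27ra lost their calls under quantile normalization, which left Il6 as the 1 gene of the list called, and Il6ra also under median-of-ratios scaling.

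Il6, the founding cytokine of the family, was at 0.217, 0, 0 and 0.0513 FPKM in control and at 1.55, 1.38, 1.09 and 0.540 FPKM in ANG II. The groups did not overlap, and ANG II 4 was the lowest ANG II library for Il6 and the highest for Osm. The values stood on 5 fragments in control and 90 in ANG II (log2 fold change 0.98, limma adjusted p = 0.00121). Like Osm, Il6 passed the filter on low values through its ANG II libraries, and with no filter it was still called (limma adjusted p = 0.00309). Il6ra, the IL-6 receptor, rose from 1.503 ± 0.177 to 2.82 ± 0.497 FPKM and Il27ra, the IL-27 receptor, from 1.80 ± 0.563 to 3.47 ± 0.727 FPKM (SD, n = 4 each).

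Il11, a fibroblast-derived cytokine, was at 0 to 0.156 FPKM in control and at 0.141 to 0.546 FPKM in ANG II, with overlap and without a call (limma adjusted p = 0.0572). With a control mean of 0.0974 FPKM, Il11 too passed the filter through its ANG II libraries. It was called with voom on recovered fragments, at 1.84 (limma adjusted p = 0.0491). Its receptor gene Il11ra1 was abundant and averaged 40.7 ± 3.87 FPKM in control beside 41.3 ± 1.33 FPKM with ANG II (SD, n = 4). The log2 fold change of Il11ra1 was 0.03 (95% interval -0.13 to 0.18), and it turned to -0.20 under median-of-ratios scaling, -0.15 under quantile normalization and -0.12 with a common total. Il27, Ebi3 and Ctf2 were each below 1.7 FPKM in every library and were not called. Cntf, with at most 2 fragments in a library, and Il31ra, with at most 2, did not reach the filter. The annotation places a second gene on the same strand over 78.9% of the exon length of Cntf.

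**Figure D3:**
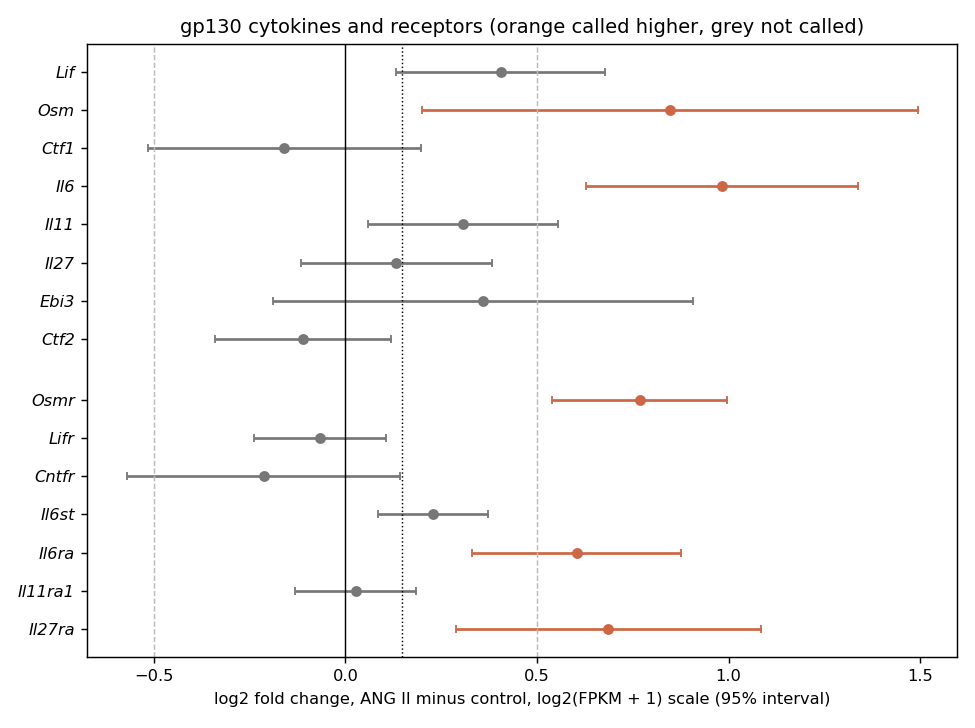
Log2 fold change, ANG II minus control on the log2(FPKM + 1) scale (x axis), with its 95% interval, for the tested ligands (upper block) and receptors (lower block) of the gp130 family. Orange genes were called higher and grey genes were not called; the dotted line is the median of all tested genes (0.15) and the dashed lines mark the threshold of 0.5. Il6 stands highest at 0.98, followed by Osm at 0.85 and Osmr at 0.77.

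Downstream of the receptors, 4 of 10 genes of the JAK-STAT relay and its brakes were called higher and 0 lower, against 14% and 1.41% of all tested genes, with a median log2 fold change of 0.47 beside 0.15 over all. Socs3, the feedback inhibitor that binds gp130, changed most. It was at 4.99, 4.87, 3.14 and 3.94 FPKM in control and at 18.3, 10.01, 14.9 and 14.0 FPKM in ANG II. The groups did not overlap, and Socs3 rose by 1.53 in log2 units (SE 0.176, limma adjusted p = 1.78e-04). Under every scaling of the libraries tried Socs3 stayed called, with a log2 fold change of at least 1.26.

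The other calls in the relay were Socs2, an inhibitor of growth hormone signalling, the kinase Tyk2 and Pias3, an inhibitor of STAT3, with log2 fold changes of 0.63, 0.60 and 0.58. These 3 calls were lost under median-of-ratios scaling, quantile normalization and a common total, which each left 1 gene called. The log2 fold changes were then 0.40 to 0.48 for Socs2, 0.31 to 0.48 for Tyk2 and 0.31 to 0.44 for Pias3, under the threshold of 0.5 but with limma adjusted p-values of at most 0.0230. Stat3, the main transcription factor of the relay, averaged 91.1 ± 6.80 FPKM in control beside 126.7 ± 5.57 FPKM with ANG II (SD, n = 4). Its log2 fold change of 0.47 (limma adjusted p = 3.34e-04) was under the threshold of 0.5. It was 0.51 and called without control 4, and 0.25, 0.29 and 0.33 under the 3 scalings. Jak1, the most abundant kinase of the relay, had a log2 fold change of -0.12 (95% interval -0.26 to 0.02), and Cish, a brake on STAT5, of -0.11. Under the 3 scalings Jak1 was at -0.35, -0.31 and -0.26 (limma adjusted p = 0.00555 to 0.0134) and Cish at -0.32, -0.35 and -0.24 (0.0255 to 0.0820), within the fold change threshold. Socs1, which brakes interferon signalling, was below 1.3 FPKM in every library and was not called.

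Textbook target genes of gp130 and STAT3 were counted from a list of 18, of which 16 were tested, 11 called higher and 0 lower, against 14% and 1.41% of all tested genes. Their median log2 fold change was 1.05, beside 0.15 over all. Other pathways also act on these genes, and the list was chosen with earlier results of these data known. Serpina3n, a serine protease inhibitor, was at 4.22, 3.32, 3.80 and 4.72 FPKM in control and at 75.4, 64.6, 109.9 and 55.5 FPKM in ANG II. Lcn2, an iron-siderophore binding protein, rose from 1.55 ± 0.344 to 6.54 ± 2.15 FPKM (SD, n = 4 each). Hp, the haemoglobin scavenger haptoglobin, spanned 2.46 to 14.5 FPKM in ANG II against 0.0626 to 2.37 FPKM in control, and its call was lost without ANG II 2 (log2 fold change 1.67, limma adjusted p = 0.0512).

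Transcription factors of the list divided. Junb, an AP-1 subunit, was at 13.5, 11.1, 7.81 and 7.01 FPKM in control and at 25.5, 22.5, 31.3 and 43.7 FPKM in ANG II, with a log2 fold change of 1.55 (SE 0.228). Runx1, a factor of dedifferentiating cardiomyocytes and of blood cells, rose 4.40-fold, from 1.47 ± 0.346 to 6.48 ± 0.840 FPKM, and Myc rose from 2.25 ± 0.171 to 4.87 ± 0.875 FPKM (SD, n = 4 each). Bcl3, a nuclear NF-κB cofactor, rose as well, with a log2 fold change of 0.96. Cebpb and Cebpd, which drive acute-phase genes in liver, were not called, with log2 fold changes of 0.15 and 0.35. That of Cebpb turned to -0.062 under median-of-ratios scaling and to -0.048 without ANG II 4, which at 23.3 FPKM stood above the other ANG II libraries at 12.8 to 13.3 FPKM.

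Of the remaining targets, Timp1, an inhibitor of matrix metalloproteinases, had the highest log2 fold change of the list, 3.99. Il4ra, the IL-4 receptor chain, rose from 8.19 ± 0.632 to 21.7 ± 2.82 FPKM and Mt1 from 69.8 ± 9.84 to 149 ± 19.2 FPKM (SD, n = 4 each). Saa3, an acute-phase apolipoprotein, was called and held 0 to 1 fragment in each control library. It too passed the filter through its ANG II libraries, and with no filter the limma adjusted p was 0.0350. Ccl2, a monocyte chemoattractant, had a log2 fold change of 1.01 without a call (limma adjusted p = 0.0592), with control 1 at 6.01 FPKM inside the ANG II range, and it was called without that library (1.40), with a filter at 1 FPKM and with voom on recovered fragments. Pim1, a STAT-induced kinase, had a log2 fold change of 0.495, just under the threshold (limma adjusted p = 0.0179). It was called at 0.51 to 0.59 without control 1, control 2, ANG II 1 or ANG II 2, had a limma adjusted p of 0.0523 to 0.0553 when any other library was left out, and was at 0.26 to 0.36 under the 3 scalings (0.0771 to 0.165). Vegfa, an angiogenic factor, averaged 425 ± 100.4 FPKM in control beside 347 ± 61.9 FPKM with ANG II (SD, n = 4), without a call. Reg3b, an oncostatin M target in cardiomyocytes, held 1 fragment in 1 library.

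**Figure D4:**
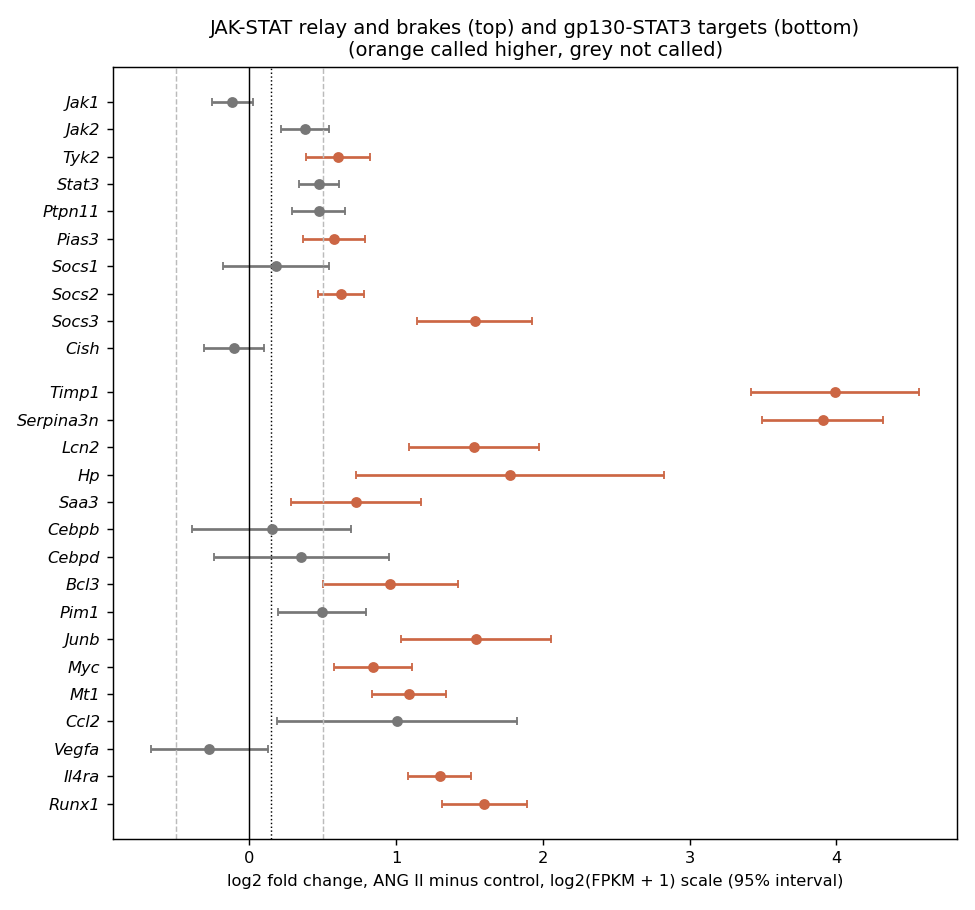
Log2 fold change, ANG II minus control on the log2(FPKM + 1) scale (x axis), with its 95% interval, for JAK-STAT relay genes and brakes (upper block) and textbook targets of gp130 and STAT3 (lower block). Orange genes were called higher and grey genes were not called, the dotted line is the median of all tested genes (0.15) and the dashed lines mark the threshold of 0.5; Socs3 at 1.53 leads the upper block and Timp1 at 3.99 the lower.

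Markers of other cells moved with the group, and their part in the results above was not tested. The counts below stand beside 14% of all tested genes called higher and 1.41% called lower. All 10 macrophage markers were called higher, and their sum was 300 to 376 FPKM in control and 672 to 941 FPKM in ANG II, 2.45-fold. Of 8 neutrophil markers, 5 were tested and 4 called higher, with sums of 2.57 to 6.79 and 8.72 to 21.97 FPKM, while Elane, best known from neutrophil precursors, was listed at 0 in every library and Mpo and Ly6g held at most 0.107 FPKM. T cell markers were called higher at 4 of 8, with sums of 2.77 to 10.9 and 9.69 to 16.9 FPKM. Fibroblast markers were called higher at 8 of 9, with sums of 1105 to 1498 and 3071 to 3350 FPKM, 2.30-fold. The matrix genes Postn, Col1a1 and Col1a2 carried most of that difference, at log2 fold changes of 4.30, 3.25 and 3.13. Lum rose 3.42-fold, whereas Pdgfra, Dcn, Dpt and Tcf21 rose 1.63- to 1.77-fold. Gsn, the most abundant in control, was at 0.717 of its control mean without a call.

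Other lists moved less. Endothelial markers were called higher at 2 of 6 (sums of 343 to 360 and 396 to 447 FPKM) and those of mural cells at 2 of 6 (467 to 540 and 520 to 590 FPKM), against 14% of all tested genes. Cardiomyocyte markers were called lower at 2 of 8, against 1.41% of all tested genes, and had a summed ratio of 0.764. At 6 of these 8 every ANG II library lay below every control library, against 5.06% of all tested genes. Of 6 markers of neurons and Schwann cells, the cells in which Cntf is best known, 4 were tested. Of these 4, Tubb3 alone was called higher, and the sums of the list were 2.44 to 5.33 and 5.71 to 8.73 FPKM.

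Within ANG II, ANG II 4 was highest for Osm at 2.75 FPKM and for the T cell sum at 16.9 FPKM, ANG II 3 was highest for the macrophage sum and ANG II 2 for the neutrophil sum. The macrophage marker Cd14 was at 52.2 FPKM in ANG II 4 and at 12.5 to 16.1 FPKM in the other ANG II libraries. No other macrophage marker was highest in ANG II 4. Cd68, Lyz2 and Mrc1 were at 19.1, 220 and 23.4 FPKM there, the lowest of the ANG II libraries. Control 1 was highest in control for Osm, Lif, Ctf1 and Ccl2 and for the macrophage, neutrophil and T cell sums.

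**Figure D5:**
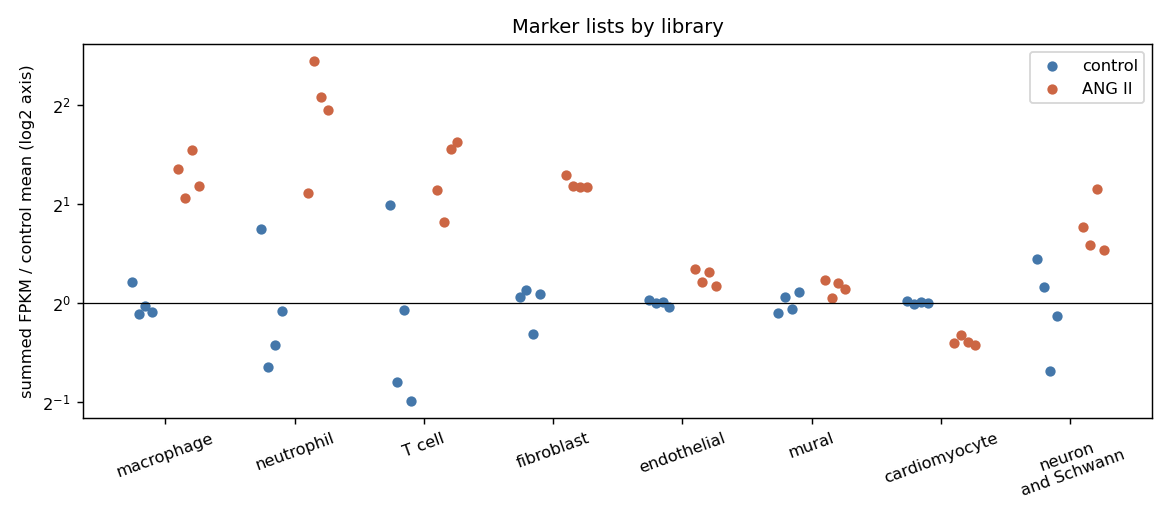
Summed FPKM of each marker list per library divided by the control mean of that list (y axis, log2 scale), for control (blue) and ANG II (orange) libraries. The macrophage, neutrophil, T cell and fibroblast sums are on average 2.45, 3.92, 2.49 and 2.30 times the control mean in ANG II, and the cardiomyocyte sum is 0.764 times.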

How the data were processed

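Oligo(dT)-selected RNA of 8 left ventricles was sequenced as paired reads, and the authors deposited FPKM values per gene, 1 column per library. The submitters' processing notes name HISAT, Bowtie2 and RSEM; versions, genome build, annotation release and use of strand were not given in the sources used here. The extraction text of the labels names another kind of cells. Samples were grouped by title. Fragments were recovered from the steps of the FPKM values with mean transcript lengths of GENCODE M21, and 98.1 to 98.5% of values under 60 fragments were whole within 0.05. Intervals and floors cover counting error only.

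Differences were fitted with limma 3.58.1 (R 4.3.3; lmFit, eBayes with trend, two-sided, Benjamini-Hochberg over all genes tested) on log2(FPKM + 1) for the 19364 genes that averaged 0.1 FPKM or more, without covariates, and the thresholds were those the study names, with base 2 assumed. The fit was tested on simulated data. Python 3.11.15, pandas 2.3.3, scipy 1.17.1 and matplotlib 3.10.9 were used. The members, lists and tests were chosen with earlier results of these data known. Named were the members, the genes of the lists, apart from some that are not reported here, and the 3 genes of nearest profile to each member that averaged 1 FPKM or more. Alternatives changed the pseudocount, filter, scaling (median of ratios, quantile, or a common total without mitochondrially encoded genes and the 10 highest), variance trend, thresholds, replicate block and each library in turn; voom on recovered fragments was chosen after seeing the data. No 2 libraries agreed within sampling noise (lowest chi-square per gene 7.44).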

Additional observations from a re-analysis of the deposited data

Results flagged for a closer look

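In groups of 4 libraries, a library was noted when its gap to the nearest other, as a share of the group's range, exceeded Dixon's 95% critical value, which chance gives in about 1 in 20 groups. Over the members and the genes of the other 3 lists, 5 of 86 groups held such a library. Control 4 stood above the other control libraries for Il6st, at 89.9 FPKM against 79.8 to 81.1 FPKM. Socs1 was at 1.27 FPKM in ANG II 1 against 0.395 to 0.485 FPKM in the other ANG II libraries. Cebpb was at 23.3 FPKM in ANG II 4 against 12.8 to 13.3 FPKM. The other 2 rested on single fragments, with Saa3 at 0 FPKM in control 1 against 0.0557 to 0.0632 FPKM, and Reg3b at 0.112 FPKM in ANG II 3 against 0 elsewhere. None of the 7 members was among them.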

How the results depend on the processing

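Osmr was called under every alternative but the threshold of 1 (0.77), with its lowest log2 fold change, 0.53, under quantile normalization. The ratios moved by less than their pooled SD under every alternative tried. The count of called members, 2 as reported, fell to 1 with no filter, a filter at 1 FPKM, median-of-ratios scaling, a common total, no variance trend or the replicate block, to 0 above a log2 fold change of 1, and ranged from 1 to 2 with a library left out. The loss was that of Osm, and above 1 that of Osmr as well. A filter at 1 FPKM left Osm untested. Where tested, Osm kept its direction. Its log2 fold change was 0.85 (no filter, no variance trend, replicate block, threshold of 1), 0.79 (median of ratios), 0.75 (quantile) and 0.81 (common total). Osm was at 0.52 to 1.02 with a library left out. With the replicate block its limma adjusted p was 0.0536, and Ccl2 was called (0.0256). No pairing by replicate number was seen. Deviations of same-numbered libraries correlated at -0.0433 to 0.0921, and those of the other pairs at -0.118 to 0.148. A pairing that touches few genes could be missed this way. Lif was called at 1.28 with a pseudocount of 0.1, at 0.41 on the adjusted p alone and at 1.75 with voom, and ranged from 0.34 to 0.48 with a library left out. Cntfr was called lower at -0.50 under quantile normalization. Over all genes 2981 were called, 6447 on the adjusted p alone and 795 above a log2 fold change of 1; higher calls were 90.8% of all, 67.5% under median-of-ratios scaling, 59.0% under quantile normalization and 78.3% with a common total. The other IL-6 family genes, 3 called, gave 1 under quantile normalization, 0 above a log2 fold change of 1, and 4 on the adjusted p alone or with voom. The JAK-STAT list, 4 called, gave 1 under each of the 3 scalings and above 1, and 7 on the adjusted p alone. Directions turned for 2 uncalled genes: Il11ra1 to -0.20, -0.15 and -0.12 under the 3 scalings and -0.042 to 0.057 with a library left out (negative without control 3), and Cebpb to -0.062 (median of ratios), -0.090 (quantile) and -0.048 to 0.36 (negative without ANG II 4). The causes were not tested. Depth limits Osm, Il6, Il11 and Saa3, whose control libraries held 0 to 4 fragments.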
